A study of Mus musculus with 6 samples.

Results

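Sgce, Peg10, Casd1 and Ppp1r9a form an imprinted domain near the start of mouse chromosome 6, and Mest and Copg2 form another farther along the same chromosome. These 6 genes, of 55450 in the files, were chosen by name from the symbols of GENCODE M21, with the knockout and wild-type values of these libraries already known. Their differences between the genotypes are therefore given as descriptions with no p-value, and counts of calls among them serve as description only. All 6 passed the filter on low counts that left 12891 genes for testing.

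Embryonic stem cells carrying the genotype Hoxd12-/- were compared with wild-type embryonic stem cells, with 3 libraries of polyadenylated RNA in each group. Both groups carry the strain label C57BL6 and the stage label of E3.5 embryos, and both were grown in a 2i medium, which holds such cells in a naive state with kinase inhibitors. The labels do not give the number of lines, clones or cultures behind the libraries, so the replicate spread behind every p-value here may be technical in origin. Library totals lay between 5412577 and 6280934 expected counts, and a count of 3 equals 0.478 to 0.554 CPM, the unit that scales counts by the size of the library. Hoxd12 itself had 0 counts in all 6 libraries, so its transcript cannot check the genotype labels.

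An imprinted gene is expressed from the copy of 1 parent. The choice is set by DNA methylation that is laid down in the germ line at a control region and kept after fertilization by factors such as ZFP57 and TRIM28. Sgce and Peg10 are read from the paternal copy and start back to back at a shared control region, and Mest is read from the paternal copy as well. In mice, Ppp1r9a is maternally expressed in extraembryonic tissue, and Copg2 is biased to the maternal copy in the nervous system. The files do not assign reads to parental copies, so every value below is the sum over both. In RNA from a bulk culture, a change in the share of cells that express a gene and a change in RNA per cell cannot be told apart.

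The cells carried the defining markers of their label, and knockout replicate 2 stood apart from the other libraries. The 9 stem cell markers summed to 8704 to 9198 CPM in knockout and 8553 to 9181 CPM in wild-type libraries, most of it from Dppa5a. Within this list Nanog fell (-0.39, edgeR adjusted p = 0.00167) and Zfp42 rose (0.29, adjusted p = 1.43e-05). The 13 fibroblast markers summed to 11.9 to 16.3 CPM in knockout and 15.3 to 20.96 CPM in wild-type libraries, and Col3a1, Postn, Lum, Dcn and Col6a3 were at 0 counts in every library. Of the 4 that were tested, Thy1 was called lower (-0.97, edgeR adjusted p = 0.00859), averaging 2.96 CPM in knockout and 5.89 CPM in wild-type libraries. Pdgfrb (-0.43), Twist1 (0.54) and Fbn1 (0.49) were not called. The 9 primitive endoderm markers summed to 56.9 to 69.2 CPM in knockout and 49.5 to 51.5 CPM in wild-type libraries, with Sox7 at 0. The 9 trophoblast markers summed to 58.5 to 61.8 CPM in knockout and 67.2 to 67.9 CPM in wild-type libraries, with none at 0 throughout. The sums of primitive endoderm and trophoblast markers did not overlap between the groups, as was so for 39.7% of single tested genes. In edgeR Col4a1 (0.54, adjusted p = 0.000574) and Gata4 (1.10, adjusted p = 0.0247) were called higher. Lamb1 (0.09) was not called. Ascl2 was called lower (-0.60, adjusted p = 0.0118), though not by DESeq2. Krt7 (-0.73), Eomes (-0.04) and Tfap2c (-0.02) were not called. Of all tested genes, 26.5% were called. The part of these markers in the values below was not tested. The chi-square of counts per degree of freedom was 11.8 and 13.4 between knockout replicate 2 and the other knockout libraries, against 1.98 to 2.50 between all other replicate pairs. Values without it are given beside each gene.

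Among the 6 genes, 4 were higher in the knockout and none was lower. Sgce was 2.61-fold, Ppp1r9a 2.01-fold, Mest 1.52-fold and Copg2 1.35-fold the wild-type level, while Peg10 and Casd1 had overlapping groups. In the 4 genes every knockout library lay above every wild-type library, which held for 19.6% of all tested genes, while 39.7% had groups that did not overlap in either direction. The same 4 passed edgeR's quasi-likelihood test in the fit of all genes, in which 12.1% of genes were called higher and 14.4% lower at an adjusted p below 0.05. DESeq2 called the same number of the 6 and 5.44% of all genes higher. Since these values chose the genes, nothing is read from that count. Among the called genes, Copg2 had the smallest difference (log2 fold change 0.43), and the nearest gene not called was Casd1 (0.37).

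**Figure D1:**
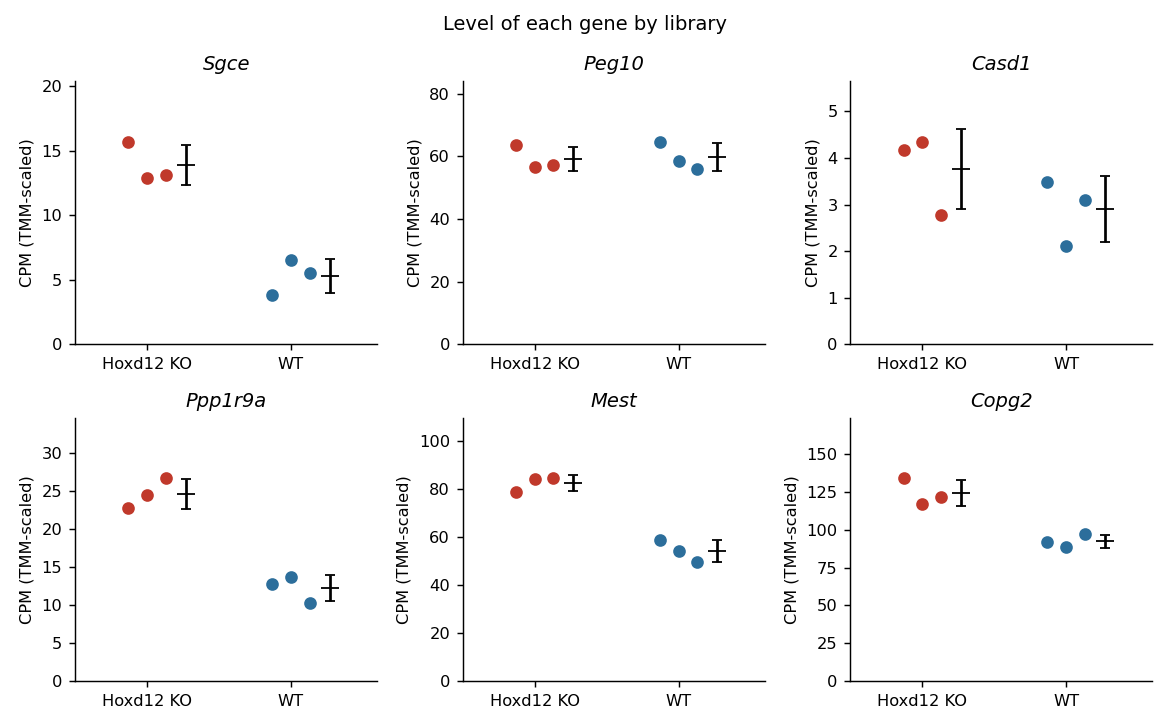
CPM (TMM-scaled) of the 6 genes in each of 3 Hoxd12 knockout (red) and 3 wild-type (blue) libraries, with the mean and SD beside them. Knockout points lie above all wild-type points for Sgce, Ppp1r9a, Mest and Copg2, and the groups overlap for Peg10 and Casd1.

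Sgce (ENSMUSG00000004631, chromosome 6, 4674350 to 4747207, minus strand, GRCm38) encodes epsilon-sarcoglycan, a membrane protein of the sarcoglycan family that is mutated in human myoclonus-dystonia. It had 15.7, 12.9 and 13.1 CPM in knockout libraries, against 3.84, 6.51 and 5.50 CPM in wild-type libraries. The lowest knockout library was thus well above the highest wild-type library, and wild-type replicate 1 was the lowest of all. Knockout libraries averaged 13.9 ± 1.57 CPM and wild-type libraries 5.29 ± 1.35 CPM (SD, n = 3 each), from 251 counts in the knockout and 94 in wild type. The log2 fold change was 1.39 (SE 0.19). It was 1.43 without knockout replicate 2 and lay between 1.2 and 1.57 with any 1 library left out.

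Peg10 (ENSMUSG00000092035, chromosome 6, 4747306 to 4760517, plus strand) derives from a retrotransposon, encodes a gag-like protein and is needed for the mouse placenta. Its annotated start lies 99 bases from that of Sgce, on the other strand. Peg10 had 63.6, 56.5 and 57.1 CPM in knockout libraries, against 64.6, 58.6 and 55.9 CPM in wild-type libraries. The libraries of both groups covered the same range. Knockout libraries averaged 59.1 ± 3.89 CPM and wild-type libraries 59.7 ± 4.48 CPM (SD, n = 3 each). The log2 fold change was -0.01 (SE 0.08), with a normal 95% interval of -0.16 to 0.13, and it was 0.02 without knockout replicate 2. On log2(TPM + 1), where TPM scales counts by transcript length and library size, the value was 0.10, the same as the shift of the median of all genes on that scale.

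The divergent pair thus differed in its ratio between the genotypes. Per length, Sgce stood at 10.3, 8.0 and 8.96 TPM in knockout and 2.52, 3.93 and 3.32 TPM in wild-type libraries. Peg10 stood at 9.39, 7.75 and 8.79 TPM in knockout and 8.86, 7.82 and 7.37 TPM in wild-type libraries. In the knockout libraries both genes were at nearly equal levels, and in the wild-type libraries Sgce was the lower of the pair. The ratio of Sgce to Peg10 within a library, which does not depend on depth, was 1.10, 1.03 and 1.02 in knockout libraries, against 0.284, 0.503 and 0.451 in wild-type libraries. The knockout ratios lay close together (SD 0.0422), and the wild-type ratios were more spread (SD 0.114).

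**Figure D2:**
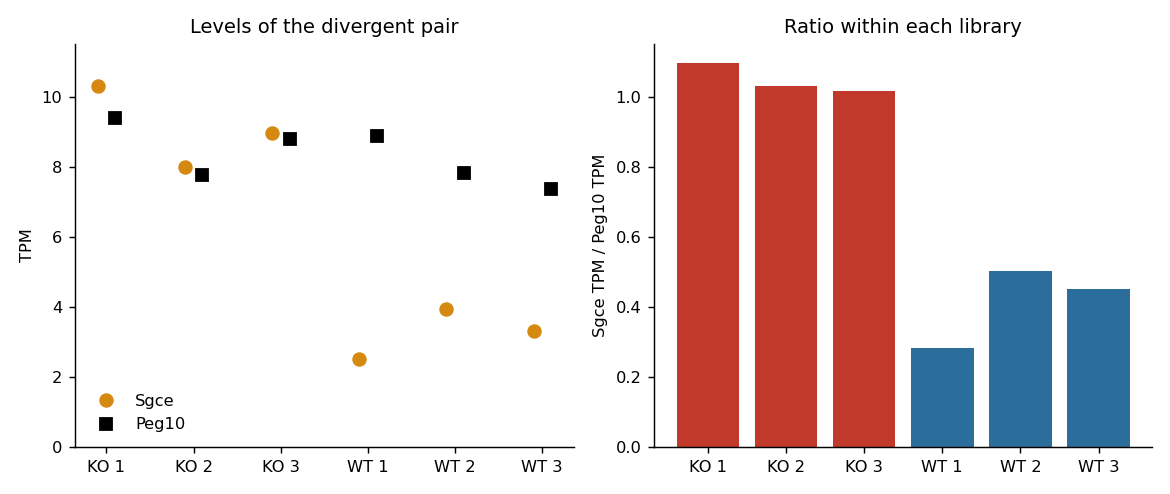
Left, TPM of Sgce (orange circles) and Peg10 (black squares) in each library. Right, the ratio of Sgce to Peg10 TPM within each library, between 1.02 and 1.10 in the knockout (red) and between 0.284 and 0.503 in wild type (blue).

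Casd1 (ENSMUSG00000015189, chromosome 6, 4600839 to 4643355, plus strand) encodes the enzyme that adds O-acetyl groups to sialic acid, and its end faces that of Sgce at a distance of 30995 bases. It held the fewest counts of the 6 genes, with 4.16, 4.35 and 2.77 CPM in knockout and 3.49, 2.12 and 3.09 CPM in wild-type libraries. Knockout replicate 3 lay below 2 wild-type libraries, so the groups overlapped. These values rest on 67 counts in the knockout and 51 in wild type. The log2 fold change of 0.37 had an SE of 0.32 and a normal 95% interval of -0.26 to 1.00, which holds both no difference and values as large as that of Ppp1r9a. It was 0.26 without knockout replicate 2, 0.56 without knockout replicate 3 and 0.18 without wild-type replicate 2.

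Ppp1r9a (ENSMUSG00000032827, chromosome 6, 4902917 to 5165661, plus strand) encodes neurabin, which binds actin and targets protein phosphatase 1. It lies 142400 bases beyond the end of Peg10. Ppp1r9a had 22.7, 24.4 and 26.6 CPM in knockout libraries, against 12.7, 13.7 and 10.3 CPM in wild-type libraries. Each knockout library held more than every wild-type library by a wide margin. Knockout libraries averaged 24.6 ± 1.96 CPM and wild-type libraries 12.2 ± 1.74 CPM (SD, n = 3 each), and the log2 fold change was 1.00 (SE 0.13), or 1.01 without knockout replicate 2.

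The size of the Ppp1r9a difference depended on whether transcript length entered the scale. The authors' files average the length over a gene's transcripts by abundance, and 12 transcripts are listed for Ppp1r9a. That length was 9087, 9370 and 8938 bases in knockout libraries, against 7736, 6628 and 8908 bases in wild-type libraries. Knockout libraries were all longer, wild-type replicate 3 almost reached them, and wild-type replicates 1 and 2 were shorter. With a length offset the log2 fold change was 0.76, and on log2(TPM + 1) it was 0.57. Per length the level was 2.41, 2.33 and 2.99 TPM in knockout and 1.48, 1.81 and 1.00 TPM in wild-type libraries. Mean length differed little for Sgce (1572 ± 16.4 bases in knockout, 1529 ± 40.9 in wild type), Mest (2427 ± 65.1 in knockout, 2458 ± 27.03 in wild type) and Copg2 (3848 ± 130.4 in knockout, 3923 ± 22.1 in wild type; SD, n = 3 each), where knockout replicate 2 was the shortest library for Mest and Copg2. For Peg10 and Casd1 it was constant, at 6567 and 3961 bases.

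**Figure D3:**
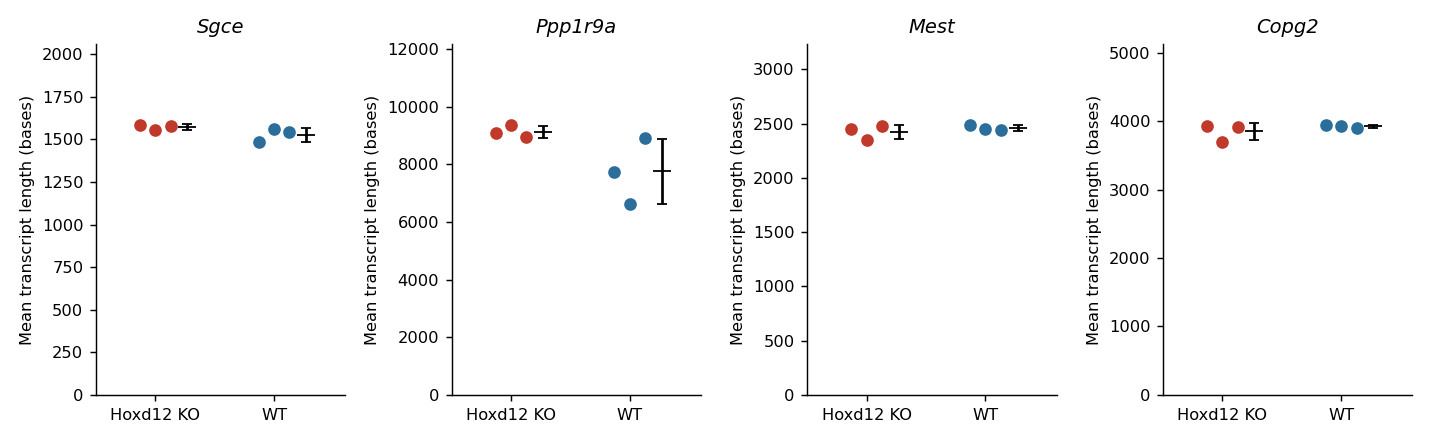
Abundance-weighted mean transcript length in bases, from the authors' files, of 4 genes in each knockout (red) and wild-type (blue) library, with mean and SD. Ppp1r9a spans 8938 to 9370 bases in the knockout and 6628 to 8908 bases in wild type.

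Mest (ENSMUSG00000051855, chromosome 6, 30723547 to 30748465, plus strand) encodes a hydrolase-like protein of the endoplasmic reticulum and carries the microRNA gene Mir335 in an intron. It had 78.4, 83.9 and 84.2 CPM in knockout libraries, against 58.7, 54.2 and 49.3 CPM in wild-type libraries. The groups were clearly apart, and the knockout libraries lay close together. Knockout libraries averaged 82.2 ± 3.26 CPM and wild-type libraries 54.1 ± 4.68 CPM (SD, n = 3 each). The log2 fold change was 0.60 (SE 0.07), or 0.59 without knockout replicate 2.

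Copg2 (ENSMUSG00000025607, chromosome 6, 30747554 to 30896794, minus strand) encodes a gamma subunit of the COPI coat, which carries cargo within the Golgi and back to the endoplasmic reticulum. It had 134.1, 117.2 and 121.8 CPM in knockout libraries, against 91.9, 88.8 and 97.3 CPM in wild-type libraries. Knockout replicate 1 was the highest, and the groups did not overlap. Knockout libraries averaged 124.4 ± 8.75 CPM and wild-type libraries 92.6 ± 4.31 CPM (SD, n = 3 each). The log2 fold change was 0.43 (SE 0.06), or 0.47 without knockout replicate 2.

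Mest and Copg2 run toward each other and share 912 exonic bases at their ends, which is 23.1% of the exonic bases of Mest and 17.8% of those of Copg2. The kit keeps strand, but the strand setting of the counting is not given in the sources used here, so a part of the reads of either gene could have come from the other. Both genes stood at about the same level per length. Mest stood at 32.2, 33.4 and 35.5 TPM in knockout and 22.0, 20.1 and 18.2 TPM in wild-type libraries, and Copg2 at 33.6, 29.0 and 31.9 TPM in knockout and 21.3, 20.1 and 21.9 TPM in wild-type libraries. The ratio of Mest to Copg2 was 0.960, 1.15 and 1.11 in knockout libraries and 1.04, 1.00 and 0.831 in wild-type libraries. These ratios overlapped, and those of Sgce to Peg10 did not. The ratio of Ppp1r9a to Peg10 did not overlap either, at 0.257, 0.301 and 0.340 in knockout and 0.167, 0.232 and 0.136 in wild-type libraries. Such separation follows from the fold changes of the single genes and is no further result.

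The microRNA inside Mest is printed for its seed (bases 2 to 8, in capitals), the part that pairs with targets, because libraries of polyadenylated RNA do not measure it. Mir335 had 0 counts in all libraries. The sequences are from RefSeq (GRCm38.p6, chr6:30741314-30741336 and chr6:30741354-30741375, plus strand).
mmu-miR-335-5p: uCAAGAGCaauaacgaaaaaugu
mmu-miR-335-3p: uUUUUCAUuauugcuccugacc

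The promoters of 3 genes that were higher in the knockout are shown for their CpG content, since methylation at CpG is what marks imprinted control regions. Each window runs from 250 bases before to 50 after an annotated start, from RefSeq (GRCm38.p6), with CG in capitals. RefSeq windows matched 4 of the 6 genes by symbol, and Sgce and Peg10 had no entry. Where a gene has several windows, the one with the most CG is printed, and the others hold as few as 8 for Mest and 10 for Ppp1r9a. The Mest window (chr6:30737800-30738099, plus strand) holds 17 CG in 300 bases, the Copg2 window (chr6:30896745-30897044, minus strand) 25, and the Ppp1r9a window (chr6:4903061-4903360, plus strand) 48. The median over 32851 windows is 7.
Mest: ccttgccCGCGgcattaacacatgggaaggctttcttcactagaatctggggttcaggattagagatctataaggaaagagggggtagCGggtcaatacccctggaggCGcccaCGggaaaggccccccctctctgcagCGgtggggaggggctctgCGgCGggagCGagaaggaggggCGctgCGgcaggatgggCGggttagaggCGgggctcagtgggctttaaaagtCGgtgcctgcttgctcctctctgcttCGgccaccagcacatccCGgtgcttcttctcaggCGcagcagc
Copg2: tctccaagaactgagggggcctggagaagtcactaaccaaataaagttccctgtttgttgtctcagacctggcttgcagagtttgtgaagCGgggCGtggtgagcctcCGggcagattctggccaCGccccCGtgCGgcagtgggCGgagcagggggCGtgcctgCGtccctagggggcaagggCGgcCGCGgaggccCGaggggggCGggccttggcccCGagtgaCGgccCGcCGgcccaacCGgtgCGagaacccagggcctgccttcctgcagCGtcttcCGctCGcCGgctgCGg
Ppp1r9a: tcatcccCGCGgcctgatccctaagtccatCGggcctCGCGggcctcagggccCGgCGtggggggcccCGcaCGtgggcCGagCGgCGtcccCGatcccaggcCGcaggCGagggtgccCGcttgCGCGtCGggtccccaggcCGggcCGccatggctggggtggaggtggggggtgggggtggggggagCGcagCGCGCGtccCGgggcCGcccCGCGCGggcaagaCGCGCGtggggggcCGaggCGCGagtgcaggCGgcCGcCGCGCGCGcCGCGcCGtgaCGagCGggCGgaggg

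The hexamer TGCCGC, which ZFP57 binds when it is methylated, was searched on both strands of these windows. It occurs 2 times in the Mest window, 1 time in the Copg2 window and 0 times in that of Ppp1r9a, and 11.6% of all windows hold it. The hexamer holds a CG and the printed windows were picked for CG, so that share is no matched background. Of windows not printed, the Mest window with 8 CG holds 0 and a Casd1 window with 23 CG holds 1. The Ppp1r9a window has more CG than 98.8% of all windows and a ratio of observed to expected CG of 0.97, against 0.71 for Copg2 and 0.59 for Mest. The Ppp1r9a window that was not printed, with 10 CG, has more than 56.5% of all windows and a ratio of 0.33. A match to the hexamer describes the letters in a window and says nothing of binding.

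Other genes of chromosome 6 were also higher on balance. Of 594 tested genes of that chromosome besides the 6, 179 were called higher (30.1%) and 47 lower (7.91%), against 11.1% higher and 14.9% lower among 11853 genes of the other autosomes. Their median log2 fold change was 0.15, with quartiles of -0.06 and 0.35, against 0.01 on the other autosomes. Chromosome 6 genes made up 7.15%, 6.93% and 7.23% of autosomal counts in knockout libraries, against 6.46%, 6.42% and 6.42% in wild-type libraries. DESeq2 called 95 genes of chromosome 6 higher, and 119 were called with the length offset.

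Set against this background on the count scale, Sgce and Ppp1r9a were far out and Peg10 was in the lower part. No rank was taken with the length offset, where Ppp1r9a stood at 0.76. On counts, Sgce had a larger fold change than any of the other 594 genes of the chromosome, and 3 of them exceeded Ppp1r9a. Mest lay above 90.9% of them, Copg2 above 83.0%, Casd1 above 77.8% and Peg10 above 29.5%. Scaled to the counts of other chromosome 6 genes in place of all genes, the log2 fold change was 1.29 (SE 0.18) for Sgce, 0.91 (SE 0.13) for Ppp1r9a, 0.51 (SE 0.07) for Mest, 0.33 (SE 0.06) for Copg2, 0.27 (SE 0.31) for Casd1 and -0.11 (SE 0.08) for Peg10.

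On that scale Sgce had 2.34, 1.89 and 1.96 counts per 10000 counts of other chromosome 6 genes in knockout libraries, against 0.613, 1.03 and 0.872 in wild-type libraries. Mest had 11.7, 12.3 and 12.6 in knockout libraries, against 9.38, 8.60 and 7.83 in wild-type libraries. Copg2 had 20.04, 17.2 and 18.2 in knockout libraries, against 14.7, 14.1 and 15.4 in wild-type libraries. Ppp1r9a had 3.395, 3.586 and 3.979 in knockout libraries, against 2.036, 2.173 and 1.634 in wild-type libraries. The groups of Sgce, Ppp1r9a, Mest and Copg2 thus did not overlap after the scaling. The share of all genes without overlap was not taken on this scale, and on CPM it was 39.7%. Peg10 had 9.49, 8.31 and 8.53 in knockout libraries, against 10.3, 9.31 and 8.85 in wild-type libraries, and its groups still overlapped.

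**Figure D4:**
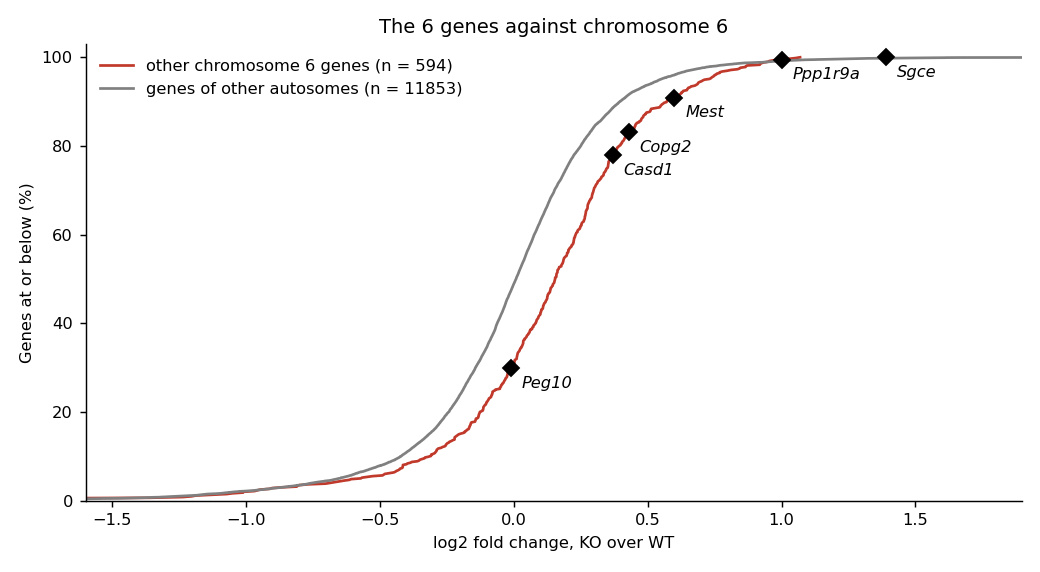
Cumulative share of genes (%) by log2 fold change, knockout over wild type, for 594 other chromosome 6 genes (red) and 11853 genes of other autosomes (grey), drawn from -1.6 to 1.9. The diamonds place the 6 genes at their log2 fold change on the chromosome 6 curve, from Peg10 at -0.01 to Sgce at 1.39.

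Neighbours within 1 Mb of the domains were examined in the same fit. Around Sgce and Peg10, 7 of 40 other annotated genes were tested, 23 had no count in any library, and 1 was called higher and none lower. That gene was Slc25a13, a mitochondrial aspartate and glutamate carrier, with 143.7, 143.9 and 140.1 CPM in knockout libraries, against 117.5, 104.6 and 108.8 CPM in wild-type libraries (log2 fold change 0.37, SE 0.05, adjusted p = 1.93e-06, edgeR). Pdk4 (0.65, adjusted p = 0.106) and Pon2 (0.71, adjusted p = 0.196), which were named after their values were seen, did not pass the test.

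Several neighbours known to be imprinted in some tissues had few counts. Pon2 had 20, 13 and 14 counts in knockout libraries and 11, 11 and 6 in wild-type libraries. Asb4 had 0 counts in knockout libraries and 0, 0 and 2 in wild-type libraries. Calcr had 2, 0 and 0 counts in knockout libraries and 0, 1 and 0 in wild-type libraries. Pon3 had 5, 3 and 8 counts in knockout libraries and 8, 4 and 6 in wild-type libraries. Klf14, beyond Copg2, had 1, 2 and 0 counts in knockout libraries and 2, 4 and 0 in wild-type libraries. Nap1l5, which belongs to another imprinted domain of chromosome 6, had 6, 7 and 4 counts in knockout libraries and 5, 4 and 4 in wild-type libraries. Pon2 passed the filter and the others did not, and for them a difference was not detectable at this depth.

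Around Mest and Copg2, 11 of 60 other genes were tested, and 4 were called higher and none lower. Ube2h, a ubiquitin-conjugating enzyme, had 68.0, 68.8 and 64.2 CPM in knockout libraries, against 52.0, 57.2 and 54.5 CPM in wild-type libraries (log2 fold change 0.29, SE 0.07, adjusted p = 0.00206, edgeR). The others were Smo, the transducer of Hedgehog signals (0.35, adjusted p = 0.00727), Ahcyl2, which is related to adenosylhomocysteinase (0.44, adjusted p = 0.00917), and Tmem209 (0.25, adjusted p = 0.00496). Cep41, the neighbour just before Mest, stood at 0.35 (SE 0.18, adjusted p = 0.148). Over both windows 5 of 18 genes were called higher, against 30.1% of the other tested genes of chromosome 6 and 12.1% of all tested genes.

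DESeq2 did not call Smo (adjusted p = 0.0619), Ahcyl2 (0.0766) or Tmem209 (0.0514), and limma on log2(TPM + 1) called none of the 3 (adjusted p = 0.0540, 0.542 and 0.0507), so that 2 window genes, Slc25a13 and Ube2h, were called by each tool. With a length offset Ahcyl2 stood at 0.03 (adjusted p = 0.924). Smo was also lost without knockout replicate 1 (adjusted p = 0.0631), Ahcyl2 without wild-type replicate 2 (0.0616) and Tmem209 without wild-type replicate 3 (0.0640).

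**Figure D5:**
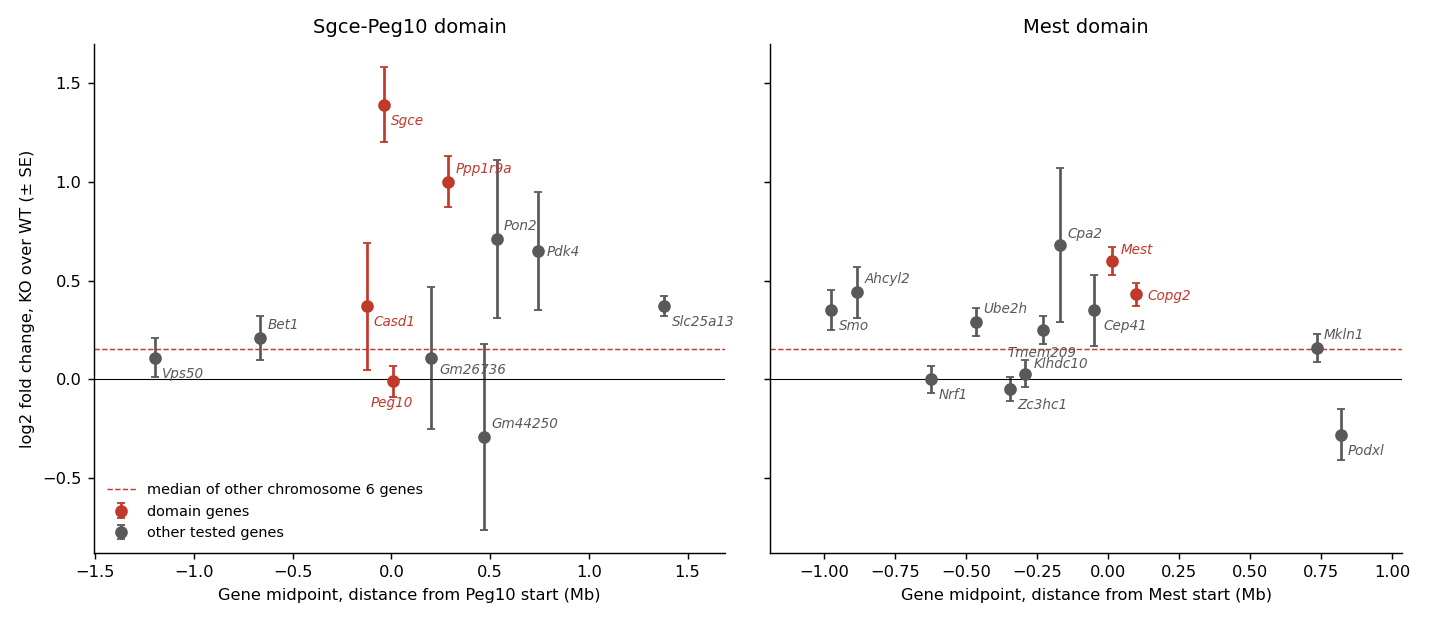
Log2 fold change, knockout over wild type (± SE), of the domain genes (red) and other tested genes (grey) within 1 Mb, by distance of the gene's midpoint from the start of Peg10 (left) or Mest (right) in Mb. Sgce at 1.39 and Ppp1r9a at 1.00 stand above all neighbours, Peg10 at -0.01 lies between them near 0, and the dashed line marks the chromosome 6 median of 0.15.

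Across chromosome 6 the 10 Mb bins that hold the domains were not those with the highest medians. The first bin, with Sgce and Peg10, had a median log2 fold change of 0.30 over 16 other genes, and the bin from 30 to 40 Mb, with Mest, had 0.12 over 47 genes. The bin from 10 to 20 Mb had 0.41 over 13 genes and that from 40 to 50 Mb 0.33 over 38 genes. Each bin had a median above 0, with 0.06 over 25 genes as the lowest.

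Partners of epsilon-sarcoglycan in the dystrophin complex were called in both directions. Of 14 genes 9 were tested, and 2 rose and 1 fell (median log2 fold change 0.57, against 0.02 for all tested genes). Among all tested genes 12.1% rose and 14.4% fell. DESeq2 did not call the fall. Sntb1 (0.83), Dtna (0.76) and Sgcb (0.62) lay above the list median, averaged at most 3.32 CPM in either group and were not called. Sntb2 (0.14), Dtnb (0.05) and Dag1 (0.01) lay below it and were not called either. Utrn, which encodes utrophin, averaged 31.5 ± 1.28 CPM in knockout libraries, against 20.6 ± 3.56 CPM in wild-type libraries (SD, n = 3 each; log2 fold change 0.61, edgeR adjusted p = 0.000123). Dmd, the dystrophin gene, averaged 20.7 ± 0.384 CPM in knockout libraries, against 13.9 ± 1.66 CPM in wild-type libraries (0.57, adjusted p = 0.00122). Of the other sarcoglycan genes, Sgcb was tested, at 0.62 (SE 0.34, adjusted p = 0.191).

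Of 13 gag-derived genes like Peg10, 6 were tested, at means of 1.81 to 12.3 CPM, and 0 passed edgeR's test, where 26.5% of all tested genes did, 0 also with an unadjusted p below 0.05 and 0 with DESeq2 or limma on TPM. The smallest p values were those of Rtl6 (0.50, adjusted p = 0.139) and Rtl1 (0.46, adjusted p = 0.427). Of the 9 COPI genes besides Copg2, all were tested, and 4 rose and 1 fell (median 0.06). Among all tested genes 12.1% rose and 14.4% fell. Copa, among the 4 that rose, was not called by DESeq2 (0.19, adjusted p = 0.0811). Its call was also lost without knockout replicate 1 or wild-type replicate 2. Copg1, the paralogue of Copg2 and also on chromosome 6, averaged 231.6 ± 3.07 CPM in knockout libraries, against 201.2 ± 1.27 CPM in wild-type libraries (SD, n = 3 each; 0.20, adjusted p = 0.000470). Copz2 rose (0.41, adjusted p = 1.68e-05) and Copz1, its paralogue, fell (-0.36, adjusted p = 7.12e-07); both encode zeta subunits of the coat.

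Of the 8 genes of sialic acid metabolism besides Casd1, 2 rose and 1 fell (median 0.16). Among all tested genes 12.1% rose and 14.4% fell, or 26.5% in either direction. Cmas, which activates sialic acid and lies on chromosome 6, rose (0.44, adjusted p = 8.60e-07), and Nans, a sialic acid synthase, fell (-0.30, adjusted p = 2.64e-05), though limma on TPM did not call Nans (adjusted p = 0.184). Gne, the other gene called higher, was not called by DESeq2 (adjusted p = 0.0885). Of the 4 genes around neurabin, Ppp1cb, a catalytic subunit of protein phosphatase 1, was called (0.19, adjusted p = 0.0349) and lost its call with DESeq2 (0.185), limma on TPM (0.371), the length offset (0.885) and on leaving out wild-type replicate 1 (0.256), knockout replicate 1 (0.0920) or knockout replicate 3 (0.101). Ppp1r9b, the paralogue of Ppp1r9a, stood at -0.20 (SE 0.10, adjusted p = 0.144).

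Genes listed for a part in keeping, setting or removing the methylation of imprints went both ways. Of 21, all tested, 7 rose and 3 fell (median 0.14), where 12.1% of all tested genes rose and 14.4% fell. The 7 took in Tet1 (0.35) and Tet2 (0.50), whose products act in removing methylation, so the count is not one of imprint keepers alone. Trim28, which encodes the co-repressor that ZFP57 recruits, averaged 1210.0 ± 5.81 CPM in knockout libraries, against 1467 ± 19.7 CPM in wild-type libraries (SD, n = 3 each; -0.28, adjusted p = 5.36e-06). Dnmt3b, a DNA methyltransferase gene, averaged 19.9 ± 0.878 CPM in knockout libraries, against 32.1 ± 2.16 CPM in wild-type libraries (-0.69, adjusted p = 8.13e-06). Zfp57 stood at 0.12 (adjusted p = 0.0466) and was not called under most other settings, among them DESeq2 (0.164), RLE scaling (0.0595) and each fit without 1 library except knockout replicate 3. The number that rose was 4 with DESeq2 and without wild-type replicate 3, 3 with the length offset and 2 with limma on TPM.

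Imprinted genes outside the 2 domains were called in both directions. They were listed by the parental copy known to be expressed in at least some tissues. Which copy was expressed in these cells was not measured. Of 26 genes listed as paternally expressed, like Sgce, Peg10 and Mest, 20 were tested, and 4 rose and 2 fell (median 0.06). Among all tested genes 12.1% rose and 14.4% fell. Slc38a4, an amino acid transporter gene, rose (0.26, adjusted p = 8.46e-05). Snurf averaged 2.13 ± 0.690 CPM in knockout libraries, against 0.0582 ± 0.101 CPM in wild-type libraries (SD, n = 3 each; adjusted p = 3.97e-05), but it overlaps Snrpn (0.02, adjusted p = 0.803), so reads can be split between them and the value is uncertain. The 2 falls, Plagl1 and Peg12, were called by neither DESeq2 nor limma on TPM, nor with the length offset or without knockout replicate 1 or wild-type replicate 1. Of 28 genes listed as maternally expressed, 20 were tested, and 5 rose and 5 fell (median -0.03). The falls numbered 3 with DESeq2 and 3 and 2 with limma on TPM at pseudocounts of 1 and 0.1. The smallest p values were those of H19 (-3.59, adjusted p = 5.45e-25) and Meg3 (0.66, adjusted p = 4.57e-13), noncoding RNAs of other imprinted domains.

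By level per length, the 6 genes ranged from low to well above the median of tested genes. Mest and Copg2 stood above 77.6% and 76.6% of tested genes in the knockout, and above 69.4% and 70.2% in wild type. Peg10 stood at the middle, above 49.4% in the knockout and 49.9% in wild type. Sgce stood above 50.5% in the knockout and 29.7% in wild type. Ppp1r9a stood above 23.1% in the knockout and 14.1% in wild type, and Casd1 above 7.08% in the knockout and 4.41% in wild type. Neighbours in this order that did not differ beyond their spread were Mest and Copg2 in both genotypes, and Sgce and Peg10 in the knockout.

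Genes with the most similar profile were sought among 9726 genes with a mean of at least 5 CPM, by the root mean square difference in log2 CPM, centred on the wild-type mean, over the 6 libraries. For Sgce the 5 nearest included Mef2b (0.212), Adad2 (0.221), Eif2s3y (0.268) and Kdf1 (0.293), all on chromosomes other than 6. Ppp1r9a ranked 15, Mest 169, Copg2 488 and Peg10 5515. For Mest they were Mapk8ip3 (0.035), Caprin2 (0.047), Arl4c (0.047), Cldn4 (0.050) and Agrn (0.051), of which Caprin2 lies on chromosome 6, and Copg2 ranked 450. For Peg10 they were B4galnt1 (0.018), Max (0.025), Pank2 (0.029), Pkn2 (0.029) and Mfap1b (0.034). This distance takes in the difference between the genotypes. The ranks of the other domain genes therefore follow from the fold changes already given and are no further result.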

How the data were processed

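RNA from 3 Hoxd12 knockout and 3 wild-type libraries was analysed from the deposited tables. Per the file headers, the authors deposited expected counts, which are estimates per gene without scaling for depth. The authors also deposited TPM and FPKM, both scaled by length and depth. TPM was used for levels, ratios and alternatives, and FPKM was not used. As tool and builds, Bowtie 0.12.2, mm8 and mm10 stand in the submitters' processing notes, with no role. The sources used here name neither quantifier, annotation nor strand setting. All 55450 identifiers matched GENCODE M21, the source of symbols and GRCm38 coordinates.

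Counts were rounded and tested in R 4.3.3 with edgeR 4.0.16 (TMM, filterByExpr, robust quasi-likelihood test, group as the only term, Benjamini-Hochberg over 12891 genes, called below 0.05). SE is the log2 fold change over the root of F. Alternatives were RLE scaling, DESeq2 1.42.0, other filters, a replicate block, a length offset, limma 3.58.1 with a TPM pseudocount of 1 or 0.1, scaling to chromosome 6 and leaving out each library. Steps were tested on simulated counts. Members and lists were chosen with earlier results of these data known. Named by rule were the 6 genes, Copg1, Ppp1r9b, called genes within 1 Mb, the 2 genes of smallest p in each list and the 5 nearest profiles of Sgce, Peg10 and Mest. Any other gene was named with its values known. A few results that this rule selects are not reported here. Counts of 3 per library limit detection, for counting error only.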

Additional observations from a re-analysis of the deposited data

How the results depend on the processing

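The number of genes called was 3420, against 1988 with DESeq2, 1856 with limma on TPM with a pseudocount of 1 and 1824 with 0.1. With these pseudocounts 1107 and 1086 genes were called higher and 749 and 738 lower, against 1559 higher and 1861 lower in the counts. Chromosome 6 genes called higher numbered 179, against 95 with DESeq2 and 119 with the length offset. Those called lower numbered 47, against 24 and 23 on the 2 TPM scales and between 31 (without wild-type replicate 3) and 47 with 1 library left out. With 1 library left out, 2615 to 3210 genes were called in all, 139 to 166 higher on chromosome 6, 4 to 5 in the windows and 28 to 37 in the lists. Window genes called higher numbered 5, against 2 with DESeq2 and 2 on each TPM scale. Listed genes called numbered 38, against 25 with DESeq2 and 23 and 22 on the TPM scales. The cause of these differences was not tested. The median of chromosome 6 minus that of other autosomes stayed between 0.11 and 0.15 in all settings run. On the TPM scales the median of all genes was 0.10 and 0.11. Ppp1r9a (0.84) was not called with the TPM pseudocount of 0.1. With 1 library left out the log2 fold change ran from 0.89 to 1.10 for Ppp1r9a, 0.54 to 0.66 for Mest, 0.37 to 0.47 for Copg2, -0.07 to 0.04 for Peg10 and 0.18 to 0.56 for Casd1.

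Replicate numbers did not pair the libraries. Deviations from the group means correlated at 0.0, 0.039 and 0.018 across genes between libraries of the same number, and knockout replicate 1 correlated best with wild-type replicate 3 (0.04). The replicate block gave 3353 calls. Depth limits the values of Casd1 and of the neighbours with few counts.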
